A study of Mus musculus with 1528 samples.

Results

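The cells described here are bone marrow–derived macrophages (BMDMs) with a high level of *Saa3* mRNA after stimulation with IL4+IL13+TNF. Members were chosen by 1 measured value: a kept IL4+IL13+TNF cell counted as *Saa3*-high when *Saa3* reached at least 100 CPM, the count scaled by the total gene fragments of the cell. By this rule 123 of 718 kept IL4+IL13+TNF cells were members, out of 1439 kept cells and 1524 wells in all. They were compared, plate by plate, with the 489 *Saa3*-low IL4+IL13+TNF cells under 10 CPM, and the 106 cells between the cuts were called intermediate. Because *Saa3* chose the cells, its own levels are given as a description with no test.

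The BMDMs came from wild-type C57BL/6 mice, and were grown in CSF1 (M-CSF). Both treatments lasted 24 h and contained IL4 and IL13, and the second added TNF, with every cytokine at 10 ng/ml. Every group therefore carries IL4+IL13, and no group without cytokines or with TNF alone was analysed here. Living cells were sorted singly into 4 plates, of which plates 2 and 3 carry the number 1 in their labels and plates 4 and 5 the number 2. The labels do not say what these numbers mean. They are called experiment 1 and experiment 2 here because the study names 2 independent experiments. Each plate held both treatments, in separate rows. No label ties the experiments to single animals or gives an age, so p-values over plates measure the spread between these plates, which may be technical. The libraries are Smart-seq2, a full-length method without molecular identifiers, so PCR copies are counted and all intervals on shares of cells cover counting error only. Kept IL4+IL13+TNF cells held 200235 to 3578643 gene fragments with a median of 462680, and 38 wells of this treatment were left out by the cell filter.

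*Saa3* encodes serum amyloid A3, an acute-phase apolipoprotein that macrophages themselves make during inflammation. Its transcription is known to respond to NF-κB and C/EBP factors downstream of TNF, IL1 and bacterial products. The other markers given for these cells belong to the same inflammatory repertoire. *Clec4e* encodes Mincle, a C-type lectin that binds mycobacterial glycolipids, *Gpr84* a receptor for medium-chain fatty acids, and *C3* the central complement component.

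The files place *Saa3* on chromosome 7 of mm10 at 46711998 to 46715700 on the minus strand, *Clec4e* on chromosome 6 at 123281789 to 123289870 on the minus strand, *Gpr84* on chromosome 15 at 103308235 to 103310612 on the minus strand and *C3* on chromosome 17 at 57203970 to 57228136 on the minus strand. The upstream sequences of *Saa3* and of *Clec4e*, the gene whose level followed *Saa3* most closely across cells, are shown as the gene of the rule and the marker closest to it. They are the RefSeq promoter windows (GRCm38.p6), written 5′ to 3′ on the gene strand and ended before the first annotated transcript base. The *Saa3* stretch is chr7:46715701-46715926 and the *Clec4e* stretch chr6:123289872-123290121. Capitals mark matches to the C/EBP-type pattern TTNNGNAA on either strand.
Saa3: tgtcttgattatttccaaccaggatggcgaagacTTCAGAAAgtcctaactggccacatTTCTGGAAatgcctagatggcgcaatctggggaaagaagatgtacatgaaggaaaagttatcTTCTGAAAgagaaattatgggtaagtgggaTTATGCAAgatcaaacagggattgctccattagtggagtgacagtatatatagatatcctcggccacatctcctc
Clec4e: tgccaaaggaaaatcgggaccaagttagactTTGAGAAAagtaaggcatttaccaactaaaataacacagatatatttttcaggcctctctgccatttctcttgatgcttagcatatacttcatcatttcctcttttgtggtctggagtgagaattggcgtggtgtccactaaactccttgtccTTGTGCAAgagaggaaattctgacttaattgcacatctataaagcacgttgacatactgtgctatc
The 226 bases of *Saa3* held 4 matches to TTNNGNAA and the 250 bases of *Clec4e* held 2. Among the upstream windows of all 32851 promoters, 33.5% held at least 1 match in 226 bases and 36.8% in 250 bases. Neither stretch held an NF-κB-type pattern (GGG, 5 bases of any kind and CC, on either strand), found in 43.8% and 45.8% of all windows of these lengths, or the AP-1 pattern TGANTCA, found in 6.15% and 6.75%. The 250 bases before *C3* held 4 NF-κB-type matches, of which a pair overlaps, 3 matches to TTNNGNAA and no AP-1 match. The shorter stretch of 76 bases before *Gpr84* held 1 match to TTNNGNAA and none to the other patterns, against 10.8% of all windows of 76 bases with a TTNNGNAA match, 22.1% with an NF-κB-type match and 2.01% with an AP-1 match. A match is a run of letters and not a shown binding site.

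*Saa3*-high cells were found on every plate under IL4+IL13+TNF. They made up 33 of 178 kept cells on plate 2 (18.5%, 95% Clopper-Pearson interval 13.1 to 25.04%), 30 of 185 on plate 3 (16.2%, 11.2 to 22.3%), 24 of 175 on plate 4 (13.7%, 8.99 to 19.7%) and 36 of 180 on plate 5 (20%, 14.4 to 26.6%). The 4 intervals overlap. Under IL4+IL13 alone, 2 of 721 kept cells reached the same cut (0.277%, 0.0336 to 0.998%). The mean of the 2 experiments was 17.1% ± 0.321 (SD, n = 2) with TNF and 0.277% ± 0.00163 (SD, n = 2) without, with no test because *Saa3* set the classes. Within every plate the share with TNF was the higher one.

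Among members, *Saa3* ran from 101 CPM to 5350 CPM with a median of 429.8 CPM, and 19 of the 123 cells exceeded 1000 CPM. The lowest member held 36 *Saa3* fragments. The median of the members was 395 CPM on plate 2, 408 CPM on plate 3, 321 CPM on plate 4 and 515 CPM on plate 5. These 123 cells held 94.1% of all *Saa3* CPM summed over the kept IL4+IL13+TNF cells. The median of all kept IL4+IL13+TNF cells was 1.68 CPM, and 371 of the 718 cells had at least 1 *Saa3* fragment. No gap separated members from other cells: the lowest members stood at 101, 101 and 102 CPM, and the cells just under the cut at 97.7, 97.5 and 92.2 CPM.

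**Figure D1:**
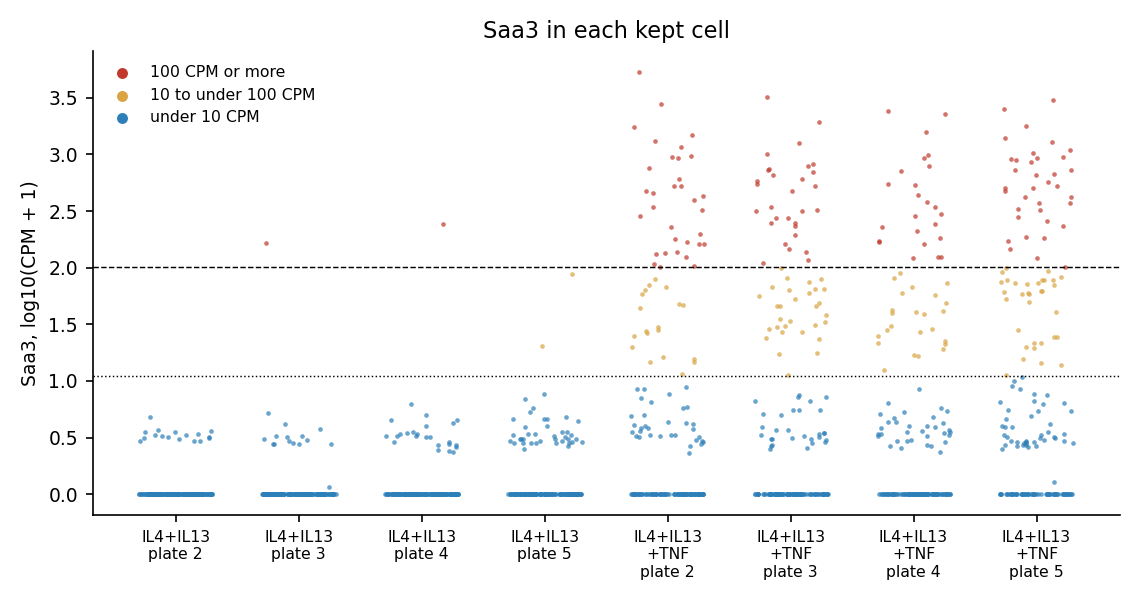
*Saa3* in every kept cell (points), by treatment and plate, as log10(CPM + 1), with the dashed line at 100 CPM and the dotted line at 10 CPM. Members (red) are spread from the cut up to 5350 CPM on the 4 plates with TNF, and 2 cells pass the cut without TNF.

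The 2 IL4+IL13 cells past the cut differed in the other markers. The cell on plate 3 held 164 CPM of *Saa3*, 117 CPM of *Clec4e*, 28.3 CPM of *C3* and 68439.5 CPM of *Lyz2* (lysozyme). The cell on plate 4 held 242 CPM of *Saa3*, and *Clec4e* and *C3* at 1.56 CPM each, which is 1 fragment. Neither had a *Gpr84* fragment. With 1 such cell on each of 2 plates, no test of *Saa3*-high against *Saa3*-low cells without TNF was run.

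In the plate rows of the IL4+IL13+TNF cells, the share of members ran from 9.76% in row P to 22.8% in row I, and 8 to 21 members came from each row. The part of plate position in the results was not tested.

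The main comparison asked which genes differ between *Saa3*-high and *Saa3*-low cells of the same plate. Fragments were summed over the cells of each class and plate, and the 8 sums were tested with edgeR with the plate as a block, so that plates and not cells were the units. A gene counted as called when its Benjamini-Hochberg adjusted p was under 0.05 and its direction was the same on 4 of 4 plates. edgeR called 0 of 15025 genes higher (0.0%) and 0 lower (0.0%), with 1317 genes at an unadjusted p under 0.05, 588 higher and 729 lower. The smallest adjusted p was 0.0994, for *Ccl17*. limma on mean CPM per cell called 1 gene higher, *Ccl2*, and 1 lower, *Rnase2a*. DESeq2 on the same sums called 149 genes higher (0.992%) and 203 lower (1.35%). Without any p, 8.32% of the genes were higher on 4 of 4 plates and 9.68% lower. The genes below are therefore described by their values, with the DESeq2 call beside them, and no call below was made by edgeR at these settings. Where a count such as 10 of 10 DESeq2 fits is given, it covers the fit on plate sums and the DESeq2 fits per experiment, with fewer genes, without cells rich in *Ccr7* or *Ccl22*, and without each plate or experiment. These DESeq2 fits reuse the same cells, and the fit on plate sums also chose most named genes, so such a count is not replication. The median log2 difference over all genes was -0.03. Levels given by plate are TMM-scaled CPM of plate sums, in which a cell weighs by its fragments.

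*Clec4e*, *Gpr84* and *C3* were given as markers of these cells, with earlier results of these data known. Their p-values below are therefore a description and no independent support. In *Saa3*-high cells *Clec4e* stood at 2069.8, 938, 2101 and 1269 CPM on plates 2 to 5, against 376, 368, 350.3 and 597 CPM in *Saa3*-low cells. The lowest plate of the members lay above the highest plate of the low cells. The log2 difference was 1.87 ± 0.29 (SE), with an adjusted p of 0.239 in edgeR (0.109 to 0.733 over its alternatives and limma) and 9.88e-05 in DESeq2, and it passed in 10 of 10 DESeq2 fits. *Gpr84* reached 42.2, 21.3, 28.7 and 19.5 CPM in members and 5.43, 10.0, 6.56 and 2.52 CPM in *Saa3*-low cells. These groups did not overlap either, and the log2 difference of 2.29 ± 0.39 (SE) had an adjusted p of 0.251 in edgeR (0.138 to 0.728) and 6.89e-07 in DESeq2. *C3* differed least of the 3. It stood at 639, 639.6, 1099 and 972 CPM in members against 509, 486, 704 and 910.3 CPM in low cells, so the groups overlapped although members were higher within each plate. Its log2 difference of 0.37 ± 0.10 (SE) had an adjusted p of 0.42 in edgeR (0.24 to 0.922) and 0.0323 in DESeq2, which was lost in 7 of 10 DESeq2 fits, one of them the fit without cells rich in *Ccr7* or *Ccl22*.

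**Figure D2:**
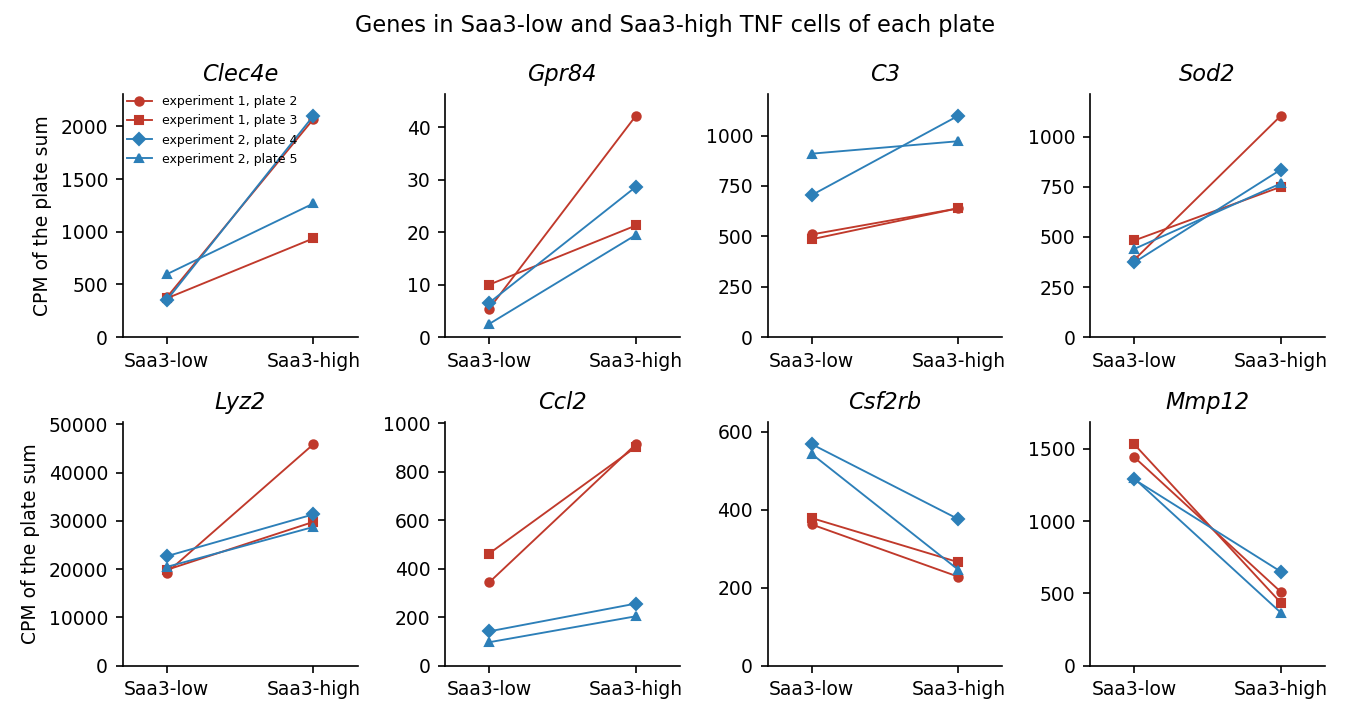
CPM of plate sums in *Saa3*-low and *Saa3*-high IL4+IL13+TNF cells for 8 genes, 1 line per plate. *Clec4e*, *Gpr84*, *Sod2* and *Lyz2* are higher in the members of every plate with no overlap, *C3* and *Ccl2* are higher within each plate with overlap between plates, and *Csf2rb* and *Mmp12* are lower.

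Counted in single cells, the markers were neither general among members nor confined to them. After each cell was thinned to 200000 fragments, *Gpr84* was found in 50.4% of members (41.2 to 59.5%) and 16.6% of *Saa3*-low cells (13.4 to 20.2%), while *Clec4e* was found in 95.1% and 84.3% and *C3* in 100% and 96.1%. At a level of 1000 CPM, a cut chosen after the values were seen, *Clec4e* marked 59 of 123 members (48.0%, 38.9 to 57.2%), 24 of 106 intermediate cells (22.6%) and 63 of 489 *Saa3*-low cells (12.9%, 10.0 to 16.2%), and 0 of 721 IL4+IL13 cells, which allows a share of up to 0.416% when 3 counts of 721 are taken as the limit (the Clopper-Pearson upper bound is 0.510%). Read the other way, 59 of the 146 IL4+IL13+TNF cells past that level of *Clec4e* were members (40.4%). *Gpr84* at 10 CPM or more was seen in 50 members (40.7%) and 61 *Saa3*-low cells (12.5%). Both levels were reached together by 50 IL4+IL13+TNF cells, of which 28 were members and 14 *Saa3*-low. Of the 123 members, 42 (34.1%) reached neither. Within members the rank correlation of *Saa3* with *Clec4e* was 0.70, 0.06, 0.39 and 0.45 on plates 2 to 5 (n = 33, 30, 24 and 36 cells), so it was near 0 on plate 3.

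**Figure D3:**
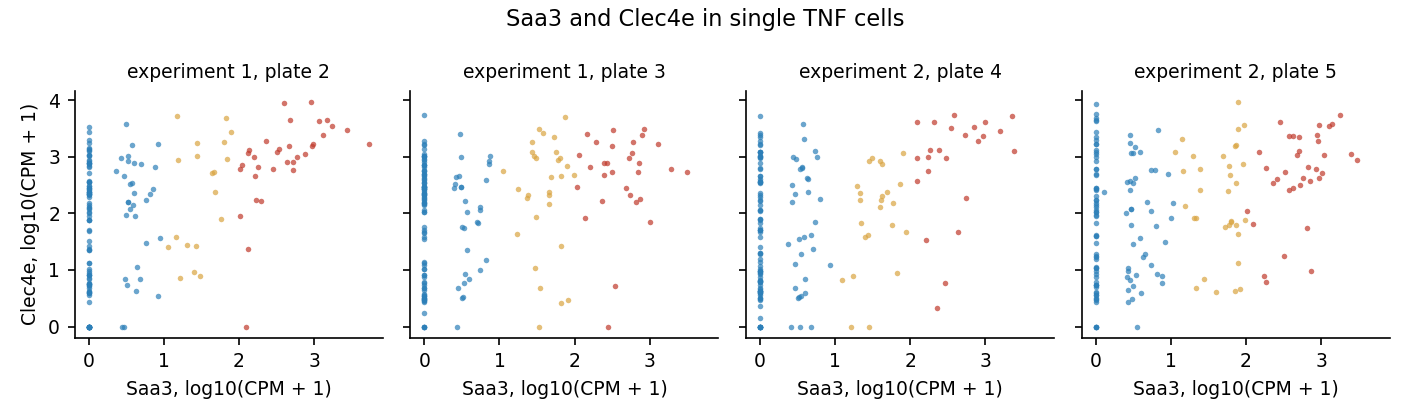
*Saa3* against *Clec4e* in single IL4+IL13+TNF cells of each plate, both as log10(CPM + 1), with *Saa3*-low cells in blue, intermediate cells in orange and members in red. Of the members, 86.2% lie at 100 CPM of *Clec4e* or more, and many *Saa3*-low cells reach the same *Clec4e* levels.

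Over the kept IL4+IL13+TNF cells of a plate, 9390 genes found in at least 25% of cells were ranked by their Spearman correlation with *Saa3*. The 5 highest means over the 4 plates were *Clec4e* (0.34, 0.29 to 0.46), *Sod2* (0.30, 0.26 to 0.34), *Cybb* (0.26, 0.19 to 0.36), *Clec4d* (0.25, 0.19 to 0.35) and *Acod1* (0.25, 0.13 to 0.41). The median gene had 0.02 and the 95th percentile was 0.10. These values describe 175 to 185 cells per plate, which share a plate, PCR and depth. *Sod2*, the mitochondrial superoxide dismutase and a target of NF-κB, stood at 1105, 749.9, 836 and 767 CPM in members and 385, 482, 372 and 439.7 CPM in *Saa3*-low cells, with no overlap. Its log2 difference was 1.03 ± 0.15 (SE), past the DESeq2 threshold in 10 of 10 fits. *Cybb*, the catalytic subunit of the phagocyte NADPH oxidase, stood at 1331, 1285, 2231 and 1602 CPM against 705, 769, 1199.8 and 1255 CPM, a log2 difference of 0.73 ± 0.11 (SE) that also passed in 10 of 10 DESeq2 fits. *Clec4d*, the lectin partner of Mincle, stood at 1048, 670.3, 705 and 592 CPM against 428, 475, 339.6 and 346 CPM, again with no overlap and past the threshold in 10 of 10. *Acod1*, which makes itaconate, was higher in members on 3 plates and lower on plate 5 (259 against 279 CPM), and its log2 difference of 1.11 ± 0.41 (SE) passed in 2 of 10 DESeq2 fits.

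Receptors for microbial products and other danger signals held the most DESeq2 calls upward of any list. Of 14 tested members of the list of pattern receptors and C-type lectins, 6 were called higher and 2 lower, against 0.992% and 1.35% of all genes, and the list median was a log2 difference of 0.29 against -0.03 over all genes. The same 2 shares of all genes are the background of every list count below. This list includes *Clec4e* and *Gpr84*, which are markers of these cells, so its count is not independent of them. *Tlr2*, the receptor for bacterial lipopeptides, stood at 152, 101, 127 and 129 CPM in members and 64.8, 57.9, 71.2 and 68.3 CPM in *Saa3*-low cells. The 4 member values all lay above the low ones (log2 difference 0.95 ± 0.11, SE). *Cd14*, the co-receptor for lipopolysaccharide, stood at 423, 299.7, 411 and 288 CPM against 204, 250.1, 171 and 188 CPM, a log2 difference of 0.80 ± 0.18 (SE) past the threshold in 9 of 10 DESeq2 fits. The scavenger receptor *Msr1* was higher by a log2 difference of 0.50 ± 0.08 (SE), in 8 of 10 DESeq2 fits. *C5ar1*, the receptor for the complement fragment C5a, came from the acute phase and complement list, where 2 of 4 tested genes were called higher and 7 of 11 were too low to test, among them *Saa1*, *Saa2*, *Lcn2* and *Hp*. It stood at 1377, 599.6, 333 and 326 CPM in members and 408, 428, 178 and 184 CPM in *Saa3*-low cells, so plates of experiment 1 were higher in both classes, and passed in 9 of 10 DESeq2 fits.

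Chemokine genes split. Of 16 tested, DESeq2 called 4 higher and 4 lower, against 0.992% and 1.35% of all genes, with a list median of -0.19. *Ccl2*, which draws monocytes, stood at 913, 901, 256 and 204 CPM in members and 343, 462, 141 and 96.6 CPM in *Saa3*-low cells. The experiments differed more than the classes, yet members were higher on every plate, by a log2 difference of 1.08 ± 0.11 (SE) with an adjusted p of 0.182 in edgeR (0.0176 to 0.862 over its alternatives and limma). *Ccl4*, a chemokine of activated macrophages, stood at 93.9, 125, 68.6 and 62.0 CPM against 40.9, 66.6, 27.9 and 17.4 CPM, a log2 difference of 1.31 ± 0.17 (SE). *Cxcl2*, which draws neutrophils, was higher by a log2 difference of 1.15 ± 0.27 (SE), and all 3 genes passed in 10 of 10 DESeq2 fits. On the other side, the genes called lower were *Ccl17*, *Ccl22*, *Ccl24* and *Ccl8*. *Ccl17* and *Ccl22*, ligands of CCR4 made by mature dendritic-type cells among others, were almost missing from members. *Ccl22* stood at 0.0668, 0.141, 3.79 and 3.58 CPM in members and at 110.3, 17.1, 668 and 161 CPM in *Saa3*-low cells. *Ccr7* or *Ccl22* reached 100 CPM in 20 of 489 *Saa3*-low cells (4.09%, 2.52 to 6.25%) and 1 of 123 members (0.813%, 0.0206 to 4.45%). These intervals overlap, so the low sums of *Ccl22* rest on few cells. Without those cells the log2 difference of *Ccl22* was -0.47 (edgeR adjusted p 0.903), and *Ccl17* was not tested.

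Cytokine genes were less clear. The list of inflammatory cytokines had 9 tested members with a median log2 difference of 0.56, and all 9 had a positive log2 difference. DESeq2 and edgeR called 0 of them, and 1 had an unadjusted edgeR p under 0.05. *Tnf* stood at 77.1, 57.5, 4.54 and 16.8 CPM in members and 26.2, 29.0, 6.73 and 6.80 CPM in *Saa3*-low cells, so it was higher on 3 plates and lower on plate 4. *Il1rn*, the IL1 receptor antagonist, differed by a log2 value of 0.26 ± 0.31 (SE).

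Of 20 tested genes of NF-κB feedback and targets, DESeq2 called 2 higher (*Sod2* and the adhesion molecule *Icam1*) and 0 lower, against 0.992% and 1.35% of all genes, and the median log2 difference was -0.04. *Icam1* stood at 227, 128, 108 and 137 CPM in members against 119, 108, 77.3 and 99.8 CPM in *Saa3*-low cells (log2 difference 0.53 ± 0.13, SE, past the threshold in 5 of 10 DESeq2 fits). Among 15 tested C/EBP, STAT3 and AP-1 factors, DESeq2 called 0 higher and 3 lower, against 0.992% and 1.35% of all genes. *Atf3*, a stress-induced repressor of inflammatory genes, stood at 209, 238, 336 and 213 CPM in members and 404, 361, 390.0 and 318 CPM in *Saa3*-low cells (8 of 10 DESeq2 fits). *Cebpa*, which encodes C/EBPα, stood at 13.1 to 26.1 CPM in members and 22.4 to 48.5 CPM in *Saa3*-low cells (3 of 10 DESeq2 fits), and *Il6st*, the shared receptor chain of the IL6 family, differed by a log2 value of -0.68 ± 0.17 (SE) (4 of 10). In the inflammatory metabolism list 1 of 13 tested genes was called, the arginine transporter *Slc7a2*, at 44.7, 68.3, 83.1 and 34.2 CPM in members and 115, 103, 102 and 110.2 CPM in *Saa3*-low cells (7 of 10 DESeq2 fits).

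**Figure D4:**
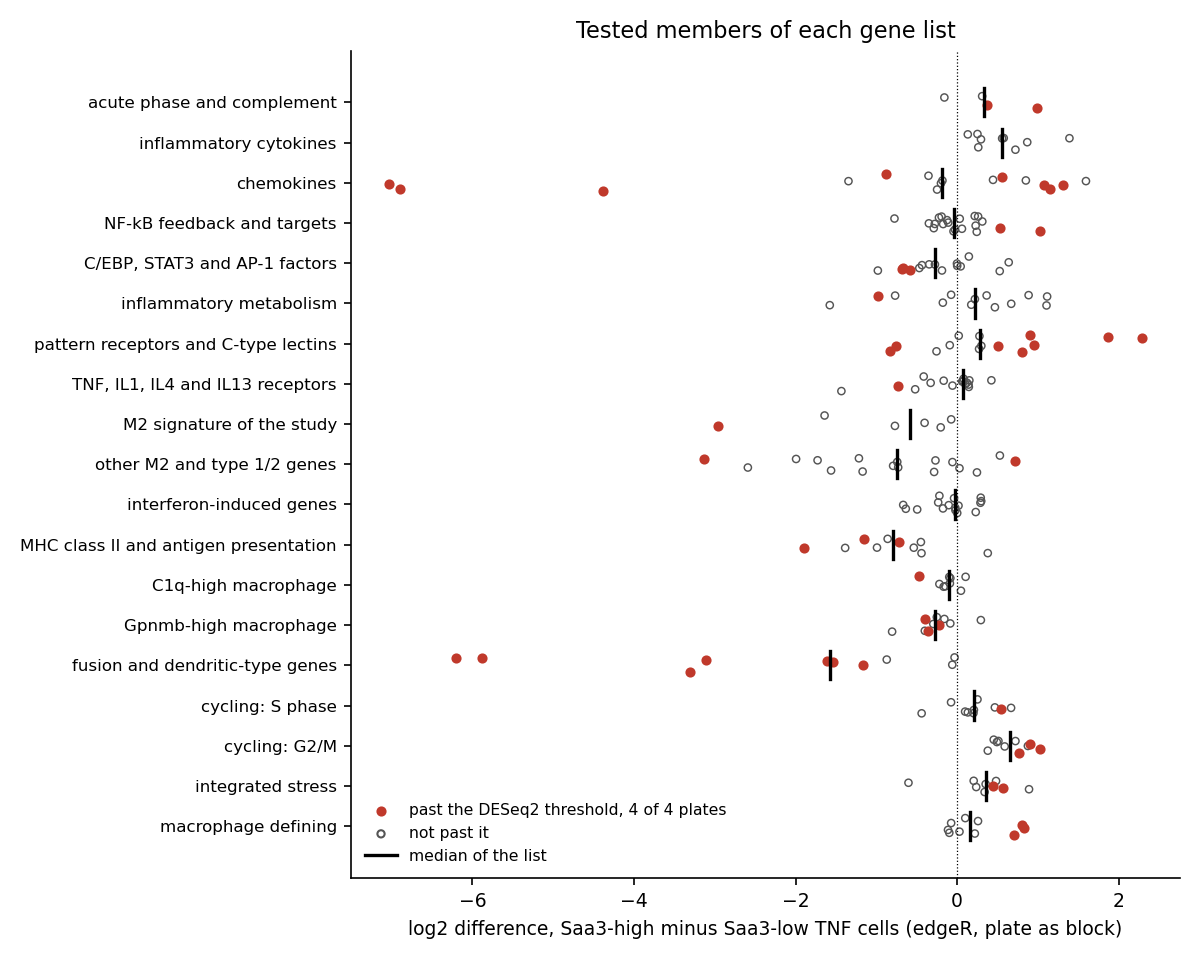
Log2 difference (*Saa3*-high minus *Saa3*-low, edgeR) of each tested member of 19 gene lists, with DESeq2 calls filled, other genes open and the list median as a bar. Pattern receptors hold 6 filled points above 0, and fusion and dendritic-type genes hold 7 below 0.

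All 10 macrophage defining genes were tested, and DESeq2 called 3 higher and 0 lower, against 0.992% and 1.35% of all genes. *Lyz2*, the macrophage lysozyme, stood at 45924, 29815, 31377 and 28761 CPM in members and 19274, 19859, 22694 and 20470.5 CPM in *Saa3*-low cells. The groups did not overlap, and the log2 difference was 0.70 ± 0.14 (SE), past the threshold in 8 of 10 DESeq2 fits. *Fcgr1*, the high-affinity receptor for IgG, stood at 33.2, 26.6, 45.1 and 26.8 CPM against 23.3, 14.8, 19.2 and 16.1 CPM (3 of 10 DESeq2 fits). Markers of other cells were low. The summed neutrophil list had a median of 50.8 CPM in members (0 to 579 CPM) and 24.01 CPM in *Saa3*-low cells (0 to 1013 CPM), *Ly6g*, *Camp* and *Ltf* had 0 fragments in every member, and 7 of its 10 genes were too low to test. The part of these cells in the results was not tested. Its 2 highest tested genes gave *Csf3r* a log2 difference of 0.33 ± 0.18 (SE) and *Mmp8* one of -0.23 ± 1.54 (SE), the latter with a sign that changed with the settings. The summed fibroblast and stroma list had a median of 0 CPM in both classes and a highest value of 55.7 CPM in members, and its tested genes *Col3a1* and *Sparc* were under 2 CPM in every sum. In the list of other blood cells only *Pf4* was tested (log2 difference -0.14 ± 0.24, SE), while the summed list had a median of 15.7 CPM in members (0 to 767 CPM) and 3.58 CPM in *Saa3*-low cells (0 to 2261 CPM). Of 7 tested monocyte genes DESeq2 and edgeR called 0, with 1 at an unadjusted edgeR p under 0.05. The monocyte genes with the highest levels were *Ms4a4c*, with a log2 difference of 1.08 ± 0.41 (SE), and *Chil3*, with 0.53 ± 0.93 (SE).

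Genes linked to cell fusion and to dendritic-type cells were the group with the most calls downward. Of 10 tested, DESeq2 called 7 lower and 0 higher, against 1.35% of all genes, and the list median was -1.57. *Mmp12*, the macrophage elastase, stood at 509, 434, 649.7 and 366 CPM in members and 1443, 1532, 1288 and 1295 CPM in *Saa3*-low cells. No plate overlapped, and the log2 difference of -1.53 ± 0.15 (SE) had an adjusted p of 0.182 in edgeR (0.0427 to 0.728 over its alternatives and limma) and 2.12e-21 in DESeq2. *Dcstamp*, needed for the fusion of macrophages and osteoclast precursors, stood at 1.80, 3.16, 8.02 and 14.7 CPM against 27.5, 64.5, 74.9 and 54.5 CPM. *Itgax*, the integrin CD11c, stood at 16.9, 71.9, 63.4 and 24.3 CPM against 104, 90.4, 141 and 123 CPM. *Mmp12*, *Dcstamp* and *Itgax* passed in every DESeq2 fit that tested them, the fit without cells rich in *Ccr7* or *Ccl22* included. *Cd83*, a maturation marker of dendritic cells, did not: its log2 difference was -1.16 with those cells and -0.20 without them (DESeq2 adjusted p 0.971). In single cells, 21.1% of members (14.3 to 29.4%) and 34.6% of *Saa3*-low cells (30.3 to 39.0%) reached 500 CPM of *Mmp12*, a cut chosen after the values were seen. Intermediate cells reached it in 19.8% (12.7 to 28.7%), so the lower share was not particular to members. The summed list had a median of 220 CPM in members, 276 CPM in intermediate and 436 CPM in *Saa3*-low cells.

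Of 10 tested genes of MHC class II and antigen presentation, DESeq2 called 3 lower and 0 higher, against 1.35% and 0.992% of all genes, and the median log2 difference was -0.79. *H2-Eb1*, a chain of MHC class II, stood at 118, 321, 172 and 126 CPM in members and 437, 357, 1061 and 864 CPM in *Saa3*-low cells. The gap was thus small on plate 3, and the call was kept in 4 of 10 DESeq2 fits. *Cd74*, the invariant chain, stood at 399, 605, 342 and 379 CPM against 595, 632, 794 and 765 CPM, and *Ciita*, the master regulator of these genes, at 14.1, 19.5, 36.6 and 14.9 CPM against 27.8, 28.8, 71.3 and 65.0 CPM. *Cd74* passed in 7 and *Ciita* in 8 of 10 DESeq2 fits. Without cells rich in *Ccr7* or *Ccl22* the log2 difference of *H2-Eb1* was -1.23 in place of -1.90 and that of *Cd74* -0.50 in place of -0.72, neither past the DESeq2 threshold.

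Of the 6 M2 “signature” genes, DESeq2 called 1 lower (1.35% of all genes were), *Retnla*, and 0 higher, while edgeR called 0 with 1 at an unadjusted p under 0.05. *Retnla*, which encodes RELMα, was low in both classes, at 0.468, 0.492, 9.77 and 5.24 CPM in members and 17.7, 12.1, 49.0 and 6.45 CPM in *Saa3*-low cells. The classes were close on plate 5, and the call held in 9 of 10 DESeq2 fits. limma on mean CPM per cell gave an adjusted p of 0.279. In single cells, *Retnla* reached 100 CPM in 8 of 489 *Saa3*-low cells (1.64%, 0.709 to 3.20%) and 0 of 123 members (Clopper-Pearson upper bound 2.95%). These intervals overlap, so the sums rest on few cells. *Mrc1* (the mannose receptor CD206) stood at 543, 497, 623 and 807 CPM against 549, 582, 762 and 682 CPM, and its log2 difference of -0.07 ± 0.10 (SE) changed sign in 2 alternatives. The lectin *Clec10a* (CD301a) differed by -0.20 ± 0.32 (SE), a sign that also changed when a plate was left out, and *Mgl2* (CD301b) by -0.40 ± 0.19 (SE). *Apoe* was lower on 3 plates and higher on plate 5, and *Il10* was at 3.09 CPM or less in every sum. Among other M2 and type 1/2 genes, 17 were tested and the median was -0.74. *Arg1*, the arginase of alternatively activated macrophages, stood at 7.15, 5.63, 148 and 40.8 CPM in members and 105, 204, 332 and 255 CPM in *Saa3*-low cells, past the DESeq2 threshold in 7 of 10 fits. *Arg1* was found in 28.5% of thinned members and 34.8% of thinned *Saa3*-low cells. It reached 10 CPM in 14.6% of members (8.91 to 22.1%) and 19.6% of *Saa3*-low cells (16.2 to 23.4%). These intervals overlap, and on plate 4 members had the higher share (25% against 15.7%). For *Arg1*, limma on mean CPM per cell gave an adjusted p of 0.271. *Tgm2*, transglutaminase 2, was the gene of this list that DESeq2 called higher, in 3 of 10 fits.

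In the C1q-high list DESeq2 called 1 of 9 genes lower, against 1.35% of all genes, and the median was -0.10. It was *C1qc*, a chain of the first complement component, at 151, 253, 362 and 366 CPM against 264, 311, 465 and 494 CPM (6 of 10 DESeq2 fits). In the *Gpnmb*-high list DESeq2 called 3 of 10 lower, and the median was -0.27. *Gpnmb* stood at 3929, 4652, 4002 and 3422 CPM in members and 6019, 5851, 4410.1 and 4839 CPM in *Saa3*-low cells, *Cd36* differed by -0.36 ± 0.09 (SE) and *Lgals3* by -0.22 ± 0.03 (SE). These calls held in 6 of 10 DESeq2 fits for *Gpnmb*, 5 for *Cd36* and 3 for *Lgals3*. *Csf2rb*, the signalling chain of the GM-CSF and IL3 receptors, was the 1 call among 16 tested receptor genes, at 228, 265, 376 and 246 CPM against 362, 379, 568 and 543 CPM, and passed in 10 of 10 DESeq2 fits. Interferon-induced genes had a median of -0.03 over 16 genes, and DESeq2 and edgeR called 0 of them, with 1 at an unadjusted edgeR p under 0.05. *Usp18*, which restrains interferon signalling, differed by -0.10 ± 0.15 (SE) and *Irf1* by 0.00087 ± 0.13 (SE).

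DESeq2 called 3 of 10 G2/M genes higher, against 0.992% of all genes, and the list median was 0.65. *Top2a*, which untangles DNA before mitosis, stood at 130.2, 66.7, 111 and 79.0 CPM in members against 103, 32.0, 63.1 and 29.7 CPM in *Saa3*-low cells, *Aurkb* at 74.5, 54.8, 47.3 and 34.9 CPM against 47.5, 26.5, 29.1 and 21.8 CPM, and *Birc5* differed by 1.02 ± 0.31 (SE). These held in 9, 5 and 7 of 10 DESeq2 fits. In single cells, the summed G2/M list reached 200 CPM in 35 of 123 members (28.5%, 20.7 to 37.3%) and 100 of 489 *Saa3*-low cells (20.4%, 16.96 to 24.3%), and the intervals overlap. On plate 4 members had the lower share (16.7% against 19.7%). Of 10 S phase genes, DESeq2 called 1 higher, *Rrm1* (ribonucleotide reductase), in 3 of 10 fits. Of 9 tested genes of the integrated stress response, DESeq2 called 2 higher. *Asns*, asparagine synthetase, stood at 203, 198, 118 and 149.8 CPM against 155, 129, 89.2 and 81.3 CPM, and *Atf4*, the transcription factor of this response, at 294, 302, 372 and 368 CPM against 262, 235, 223 and 263 CPM. The call held in 6 of 10 DESeq2 fits for *Asns* and in 4 for *Atf4*.

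Over all genes, the 10 DESeq2 calls with the largest log2 difference upward, among genes found in at least 25% of thinned members, were *Gpr84*, *Clec4e*, *Smpdl3b*, *Lyrm1*, *Ccl4*, *B3galnt2*, *D11Wsu47e*, *Cxcl2*, *Copz2* and *Slc43a3*. *Smpdl3b*, a lipid-modulating phosphodiesterase of the membrane, stood at 73.9, 20.7, 26.6 and 26.8 CPM in members and 12.1, 7.70, 17.9 and 11.98 CPM in *Saa3*-low cells. *B3galnt2*, a glycosyltransferase, stood at 18.9, 22.1, 42.8 and 24.03 CPM against 10.8, 10.0, 11.2 and 10.5 CPM. The 6 genes of this group that belong to no list (*Smpdl3b*, *Lyrm1*, *B3galnt2*, *D11Wsu47e*, *Copz2*, *Slc43a3*) had log2 differences of 1.12 to 1.44 and low levels, at most 73.9 CPM in any sum. The filter asks for detection in the members alone, so a gene can enter through the class where it is high. The 10 calls with the largest difference downward, among genes found in at least 25% of thinned *Saa3*-low cells, were *Arg1*, *Gpc1*, *Sema4b*, *Clec4b1*, *H2-Eb1*, *Axl*, *Rnase2a*, *Itgax*, *Mmp12* and *Rogdi*. *Axl*, a receptor for the uptake of dying cells, stood at 13.97, 17.9, 7.87 and 18.5 CPM in members and 34.4, 36.2, 62.5 and 71.2 CPM in *Saa3*-low cells. *Rnase2a*, an eosinophil-type ribonuclease, stood at 33.6, 44.7, 99.7 and 117 CPM against 76.0, 169, 315 and 411 CPM. It has near-identical copies in the mouse genome, and reads shared with them may be missing from counts of uniquely mapped fragments. *Gpc1*, a heparan sulfate proteoglycan, stood at 0.468, 10.3, 3.10 and 4.35 CPM against 36.5, 25.2, 16.4 and 18.9 CPM. The lectin gene *Clec4b1* differed by -2.22 ± 0.52 (SE), the semaphorin *Sema4b* by -2.37 ± 0.45 (SE) and *Rogdi* by -1.50 ± 0.26 (SE), the last with -0.53 without cells rich in *Ccr7* or *Ccl22*.

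The intermediate cells and the cells without TNF place these values on a scale, given per experiment with no test. These levels are CPM of experiment sums without TMM scaling. *Clec4e* stood at 19.4 and 21.2 CPM without TNF in experiments 1 and 2, at 374 and 469.7 CPM in *Saa3*-low, 1020.0 and 646 CPM in intermediate and 1485 and 1619 CPM in *Saa3*-high cells. It thus increased with each class in both experiments. *Gpr84* went from 0.0223 and 0.0744 CPM without TNF through 7.90 and 4.67 CPM and 13.2 and 5.28 CPM to 31.3 and 23.4 CPM. *Sod2* went from 137 and 134 CPM through 439 and 407 CPM and 571 and 479 CPM to 911 and 796 CPM. For these genes the *Saa3*-low cells with TNF were already above the cells without it. *Lyz2* followed the same order, from 11739.7 and 12834 CPM without TNF to 37234 and 29858 CPM in members, with *Saa3*-low and intermediate cells of experiment 2 close to each other (21762 and 21882 CPM). *C3* stood at 7.83 and 35.1 CPM without TNF and between 499 and 1025 CPM in the 3 classes with TNF, in no common order. *Mmp12* was highest in *Saa3*-low cells (1497 and 1299 CPM), while members (462 and 485 CPM) stood near the cells without TNF (578 and 501 CPM). The share of cells at 500 CPM of *Mmp12* or more was close in intermediate cells (19.8%) and members (21.1%). *Mrc1* stood at 1232 and 1278 CPM without TNF and between 453 and 788 CPM in every class with TNF.

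**Figure D5:**
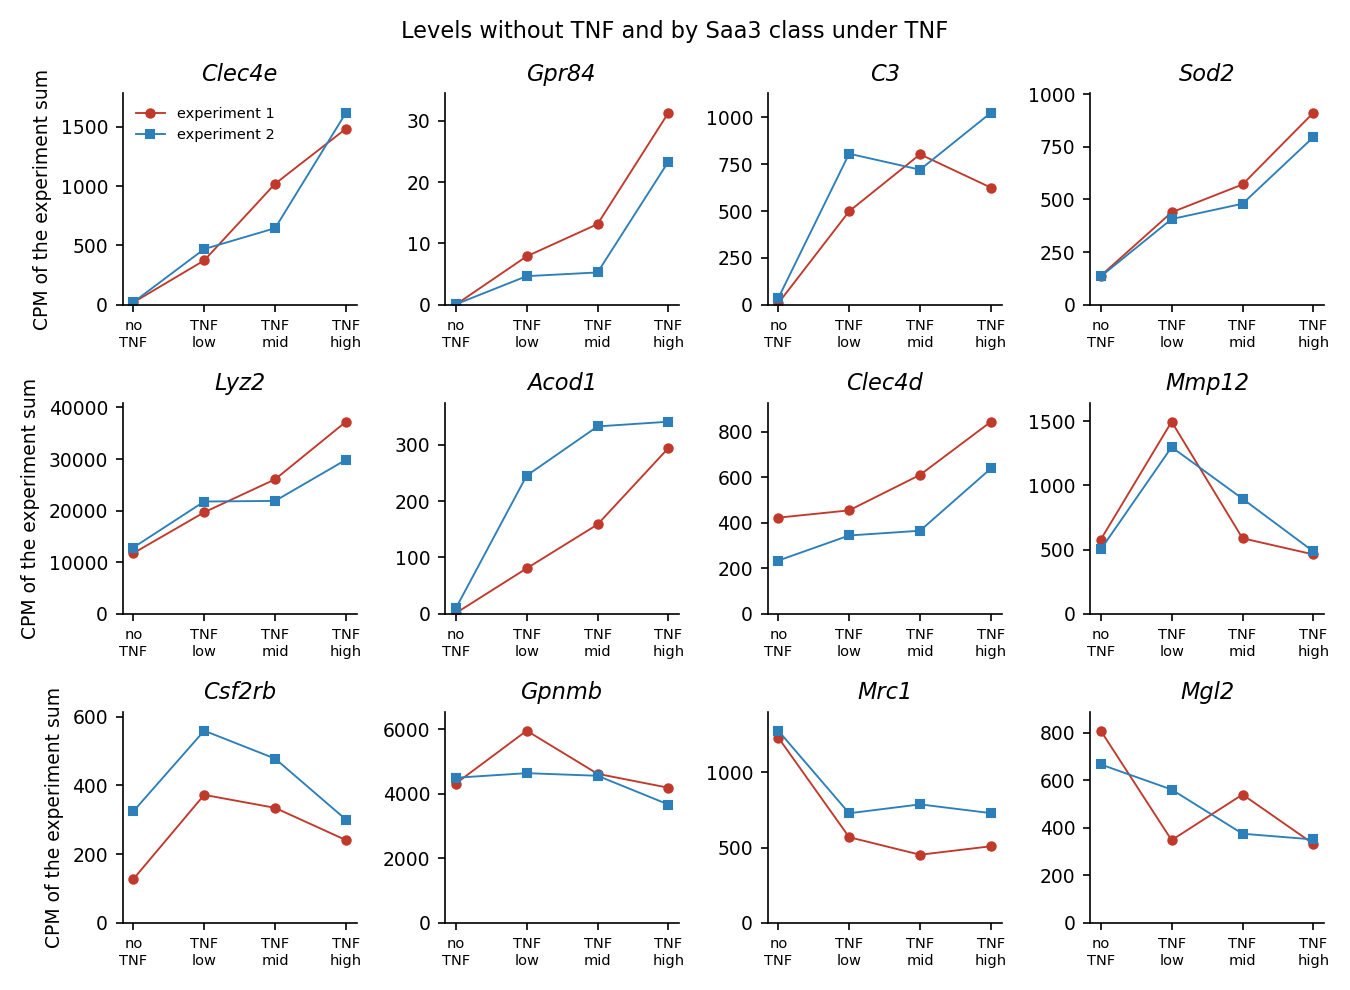
CPM of experiment sums for 12 genes without TNF and in the *Saa3*-low, intermediate and *Saa3*-high cells with TNF, 1 line per experiment. *Clec4e*, *Gpr84*, *Sod2* and *Lyz2* increase along the classes in both experiments, *Mmp12* and *Csf2rb* peak in *Saa3*-low cells, and *Mrc1* differs mainly between the treatments.

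Depth and cell quality were compared over plates. Plate medians of gene fragments per cell were 477174 ± 62141 (SD, n = 4 plates) in members and 457488 ± 27438 in *Saa3*-low cells (exact two-sided sign-flip permutation test, p = 0.75). Thinned to equal depth, members had more detected genes on 4 of 4 plates, 7021 ± 305 against 6770 ± 374 (SD), and the exact permutation p was the smallest that 4 plates allow. The mitochondrial share was lower in members on 4 of 4 plates, 2.87% ± 0.344 against 3.13% ± 0.401 (SD), with the same p. The ratio of gene to spike-in fragments was higher on 2 plates and lower on 2 (exact permutation p = 0.5), the summed S phase list was higher in members on 3 plates (p = 0.25, exact permutation) and the summed G2/M list on 4, again with the smallest p. The part of these differences in the gene results was not tested.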

How the data were processed

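Smart-seq2 libraries of single BMDMs from both treatments were measured in 1524 wells of 4 plates. The authors aligned fragments to mm10 with gsnap and deposited raw counts of uniquely mapped fragments per Ensembl gene and well, made with featureCounts 1.6.3, with the strand not used, so overlapping and antisense genes cannot be told apart. The table held 55421 genes and 92 spike-in rows, and neither totals nor tests include the latter. 11 columns of wells without a matching or assigned sample label were not used. The labels name Seurat 3 for the authors' own clustering, not used here.

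Wells with at least 200000 gene fragments, 5000 detected genes and at most 10% mitochondrial fragments were kept. No doublet caller was run on the singly sorted cells. Counts were summed by plate and class and tested with edgeR 4.0.16 (quasi-likelihood, TMM, plate as block, Benjamini-Hochberg) in R 4.3.3, on genes that passed filterByExpr and had a fragment in 5.0% or more of the cells in 1 of the classes, without *Saa3*. DESeq2 1.42.0 and limma 3.58.1 on log2(CPM + 1) were run beside it. Low and high sums of a plate are paired because they share plate and experiment. A log2 difference is *Saa3*-high minus *Saa3*-low. After these fits, the edgeR test was also run on simulated sums with changed genes, built from the main fit. No result here rests on that run.

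The members and gene lists were chosen with earlier results of these data known. Named genes were the 4 markers, the 6 M2 “signature” genes, the 10 genes with the largest differences each way among calls found in at least 25% of cells of the higher class, up to 4 calls of each list or else its 2 highest tested genes, and the 5 genes with the highest rank correlation. Since edgeR gave 0 calls, calls of DESeq2 were used for this rule, a choice made after that was seen. Shares and exact tests used scipy 1.17.1, numpy 2.4.6 and pandas 2.3.3, and plots matplotlib 3.10.9, in Python 3.11.15.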

Additional observations from a re-analysis of the deposited data

Results flagged for a closer look

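In 158 groups of 4 plates tested for a plate that stands far from the other 3, 6 were flagged, and chance flags about 1 in 20 groups. In members, plate 5 stood apart for *Apoe* (131 CPM) and for the monocyte gene *Chil3* (82.0 CPM). Plate 4 stood apart for *Clec4b1* (26.8 CPM). Plate 2 stood apart for *Lyz2* (45924 CPM) and *Smpdl3b* (73.9 CPM), both already higher in members on the other 3 plates. In *Saa3*-low cells, plate 5 stood apart for *Clec4e* (597 CPM), with the members of the same plate at 1269 CPM.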

How the results depend on the processing

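With edgeR 0 genes were called higher and 0 lower, and the fit with no replicate block also gave 0 and 0, as did sums per experiment with the replicate block. Other counts came from DESeq2 (149 higher, 203 lower), limma (1 and 1), cells thinned to 200000 fragments (1 and 4), no gene filter (6 lower), and 1 lower each with cuts at 50 or 200 CPM or against all cells under 100 CPM. Of the fits added after the data were seen, DESeq2 gave 90 higher and 135 lower on sums per experiment, 119 and 151 with genes found in 25% of cells, and 123 and 178 without cells rich in *Ccr7* or *Ccl22*. Leaving out a plate or an experiment gave 0 to 111 higher and 0 to 191 lower, the low end from edgeR. The cause of the gap between edgeR and DESeq2 was not tested.

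The treatment difference in the share of *Saa3*-high cells, 16.9 percentage points, was 22.6 at a cut of 50 CPM, 12.7 at 200 CPM, 31.3 at 10 CPM and 17.4 in thinned cells. Of 72 named genes, 64 kept their direction in every fit. *Irf1*, near 0, turned to -0.065 with no replicate block, -0.023 on sums per experiment, -0.024 with library sizes, -0.055 without the gene filter, -0.0045 against all cells under 100 CPM, -0.010 with genes in 25% of cells, -0.046 without cells rich in *Ccr7* or *Ccl22*, and -0.016, -0.0061 and -0.037 in the DESeq2 versions of the fits per experiment, with fewer genes and without those cells. *Mmp8* turned to 0.092 in thinned cells and 0.49 at 50 CPM, *Mrc1* to 0.0039 in thinned cells, and *Sparc* to 0.13 with no replicate block, 0.033 at 50 CPM and 0.076 at 200 CPM. With a plate or experiment left out, values ran from -0.89 to 1.97 for *Chil3*, -0.52 to 0.081 for *Clec10a*, -0.13 to 0.16 for *Irf1*, -2.06 to 0.95 for *Mmp8*, -0.18 to 0.0067 for *Mrc1*, -0.54 to 0.27 for *Pf4*, -0.47 to 0.59 for *Sparc* and -0.22 to 0.076 for *Usp18*. The difference in gene fragments per cell ran from -2632 to 34167 with a plate left out. The 24 to 36 members per plate limit each sum.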
